A study of Mus musculus with 6 samples.

Results

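The genes described are 10 that act on collagen after its translation, the lysyl oxidases Lox, Loxl1, Loxl2, Loxl3 and Loxl4, the lysyl hydroxylases Plod1, Plod2 and Plod3, the prolyl 4-hydroxylase subunit P4ha3 and the collagen chaperone Serpinh1. They were taken by name, with symbols assigned from Entrez numbers, and all 10 were found among the 15295 genes of the count table. All 10 passed the filter on low counts, which left 14498 genes. RNA came from 6 whole tumours, which mix tumour and host cells, of the mouse bladder cancer line NA13, with C57BL/6 named as strain. The NA13 cells carried an shRNA against Ddr2 in 3 tumours (labelled shDdr2) and a scrambled shRNA in 3 (control), and IgG was given in both groups. The sources used here do not give the age of the mice, the number of shRNA clones or whether each tumour is another animal. The p-values therefore set the difference between groups against the scatter among these samples, and part of that scatter may be technical. They may not extend to other mice.

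Collagen chains are modified in the endoplasmic reticulum before they are secreted. Prolyl 4-hydroxylases make the hydroxyproline that stabilises the triple helix, lysyl hydroxylases make the hydroxylysine that carries sugars and shapes crosslinks, and the chaperone HSP47, encoded by Serpinh1, binds the folded helix. Outside the cell, lysyl oxidases turn lysine and hydroxylysine into reactive aldehydes that join collagen molecules into stiff fibres. Fibroblasts are a main source of fibrillar collagen in solid tumours, and Ddr2 encodes a receptor tyrosine kinase that binds it.

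Between the tumours labelled shDdr2 and the controls, no member passed the edgeR test across all genes, and no other gene did. Of the 10 members, 9 overlapped between the groups. The groups did not overlap in 4.32% of all genes tested, 2.21% higher and 2.11% lower in the tumours labelled shDdr2. All 5 lysyl oxidases, Plod2 and Serpinh1 were lowest in the library labelled shDdr2 1, and 8 members were highest in that labelled shDdr2 3. P4ha3 stood apart from the rest. It was higher in all 3 tumours labelled shDdr2 than in any control, at 30.6 ± 3.95 CPM in those labelled shDdr2 and 19.1 ± 4.33 CPM in controls (SD, n = 3 each), while P4ha1, the widely expressed subunit of the same enzyme, had lower values.

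Upstream sequences are shown for P4ha3 and Serpinh1, which both lie on chromosome 7 and had different patterns over the libraries. RefSeq holds these sequences for both. Each is the 250 bases before the RefSeq transcription start on GRCm38.p6, written 5′ to 3′ on the gene's own strand. Capitals mark matches on either strand to the GC box GGGCGG and to the hypoxia response cores ACGTG and GCGTG.
P4ha3, chr7:100285270-100285519, plus strand: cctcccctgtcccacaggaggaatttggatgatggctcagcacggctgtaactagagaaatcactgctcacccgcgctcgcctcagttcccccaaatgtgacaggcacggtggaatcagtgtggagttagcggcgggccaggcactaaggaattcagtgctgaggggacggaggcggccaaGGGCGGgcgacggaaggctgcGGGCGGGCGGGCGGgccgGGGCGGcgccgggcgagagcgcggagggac
Serpinh1, chr7:99353240-99353489, minus strand: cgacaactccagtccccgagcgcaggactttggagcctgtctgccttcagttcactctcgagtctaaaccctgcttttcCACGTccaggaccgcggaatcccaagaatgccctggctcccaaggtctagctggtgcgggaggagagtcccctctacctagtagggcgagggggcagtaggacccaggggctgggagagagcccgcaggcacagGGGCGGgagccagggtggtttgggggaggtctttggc

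The P4ha3 window held 5 matches to the GC box, some of them overlapping, and 0 to the hypoxia cores. The Serpinh1 window held 1 match to the GC box and 1 to a hypoxia core. A GC box was found in 32.7% and a hypoxia core in 38.6% of 32851 windows of the same length before RefSeq starts. These shares count windows with at least 1 match, and the share with 5 was not computed. The CCAAT box, the TATA box TATAAA and the heat shock element GAANNTTC had 0 matches in both windows, against 33.8%, 12.4% and 6.69% of all windows. A match is a description of the letters only.

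The libraries held 15560571 to 19522985 counts, and members had 107 to 5722 counts in each. Ddr2 itself was at 4.84, 18.95 and 28.6 CPM in the libraries labelled shDdr2 1 to 3, and at 6.42, 16.7 and 20.5 CPM in control 1 to 3, so the targeted gene did not separate the groups, and every direction is between libraries as labelled. CPM are counts scaled to a common library total after TMM scaling. The library labelled shDdr2 1 stood apart, with the lowest summed level of the 10 fibroblast markers (249.1 CPM, against 853 CPM at most in that group and 325 to 498 CPM in controls) and the highest of the 6 keratinocyte markers (3737 CPM, against 713 CPM at least in that group and 617 to 1025 CPM in controls). The 9 skeletal muscle markers summed to 435 to 3309 CPM in the tumours labelled shDdr2 and to 8.79 to 109 CPM in controls, with no overlap. The 7 epithelial markers, all present, summed to 6297 to 6837 CPM in the tumours labelled shDdr2 and 6582 to 7115 CPM in controls. In 3 of them, Epcam, Krt8 and Krt18, every tumour labelled shDdr2 was below every control (Krt8 was named after its values were seen). Across all genes tested, 2.11% were lower in this way. The other epithelial markers overlapped between the groups. Of the 7, 6 had a log2 fold change below 0 and 1 above (Krt5, 0.025). No marker of these lists was at 0, since the lowest count in the table is 1. In whole tumours, fewer cells of a type and less RNA per cell cannot be told apart.

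**Figure D1:**
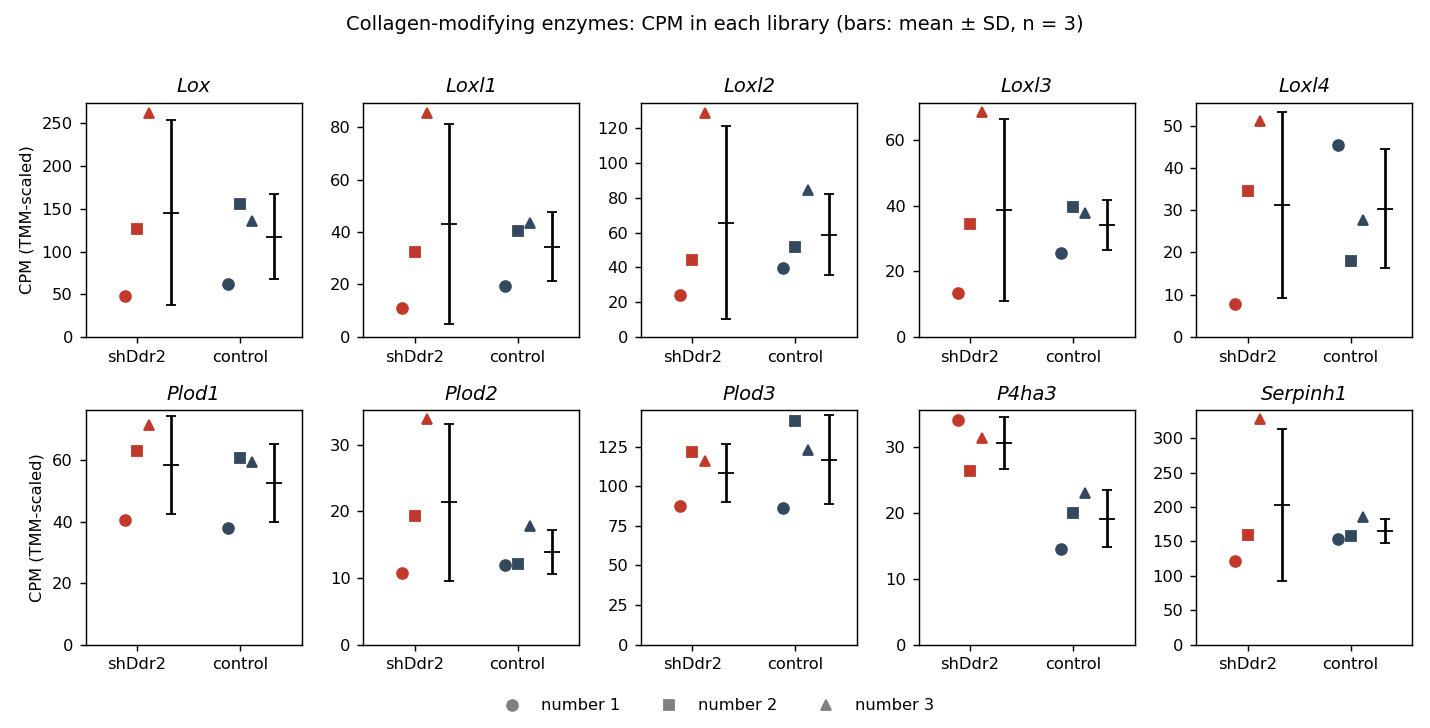
Level of each gene in TMM-scaled CPM (vertical axes, linear) in the 3 libraries labelled shDdr2 (red) and the 3 controls (dark), with symbols for the library number and bars at the mean ± SD (n = 3). P4ha3 is the only panel without overlap, at 26.4 to 34.2 CPM in tumours labelled shDdr2 and 14.5 to 23.01 CPM in controls.

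Per kilobase of exon, the members' levels ran from Serpinh1 at 75.3 ± 30.2 CPM per kilobase to Plod2 at 3.27 ± 1.61 CPM per kilobase (mean ± SD over the 6 libraries). Serpinh1 was the highest member in each of the 6 libraries, with a range of 49.4 to 134 CPM per kilobase. Lox (27.5 ± 16.1) and Plod3 (24.9 ± 4.799) followed and did not differ beyond their spread. Loxl1 (11.7 ± 7.87) and Loxl2 (11.5 ± 7.08) were close to each other, as were Plod1 (8.21 ± 1.97), Loxl3 (7.94 ± 4.01), P4ha3 (7.94 ± 2.33) and Loxl4 (7.31 ± 3.91), all in CPM per kilobase. Each neighbouring pair in this order had overlapping ranges over the libraries. The exon length is the union of annotated exons and may differ from the length of the transcripts in these tumours.

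**Figure D2:**
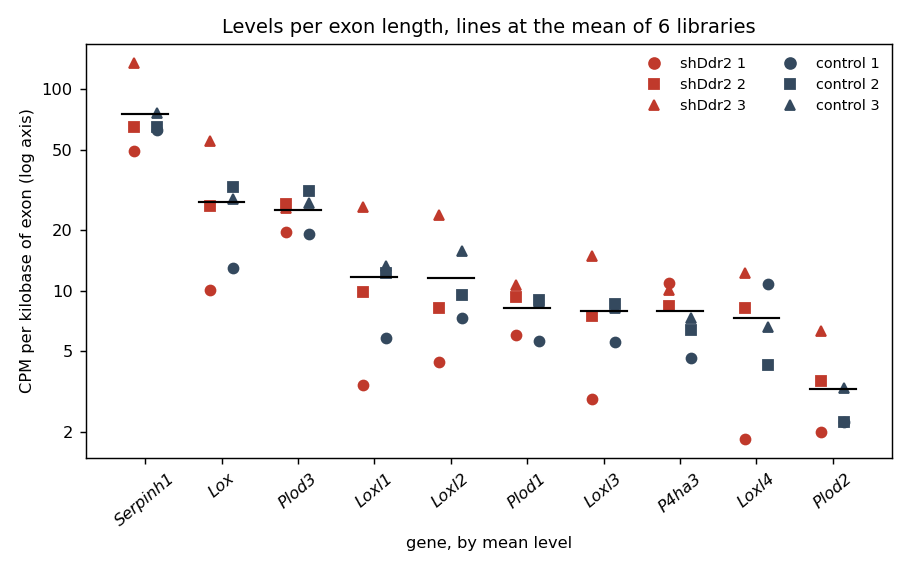
CPM per kilobase of exon (vertical log axis) of the 10 genes, ordered by mean level, with a point per library (tumours labelled shDdr2 in red on the left, controls dark on the right) and lines at the mean of 6 libraries. Serpinh1 lies between 49.4 and 134, and Plod2 between 2.00 and 6.29.

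Lox, which oxidises lysines of both collagen and elastin (GRCm38 chromosome 18, 52516067 to 52529867, minus strand), was at 48.2, 126 and 263 CPM in the libraries labelled shDdr2 1 to 3 and at 61.8, 155 and 136 CPM in control 1 to 3. The groups overlapped, and the control values lay inside the range of the tumours labelled shDdr2. In edgeR the log2 fold change was 0.31 (SE 0.60, 95% interval -1.102 to 1.72, unadjusted p = 0.623). Leaving out the library labelled shDdr2 3 gave -0.43, and leaving out control 1 brought it near 0.

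Loxl1, known in mice for elastic fibre renewal (chromosome 9, 58287738 to 58313186, minus strand), was at 11.2, 32.5 and 85.2 CPM in the libraries labelled shDdr2 1 to 3, against 19.3, 40.5 and 43.5 CPM in control 1 to 3. Its highest level was 7.62 times its lowest, the widest range of the members. The log2 fold change was 0.32 (SE 0.67, 95% interval -1.26 to 1.90, edgeR unadjusted p = 0.646), and it was -0.65 without the library labelled shDdr2 3. Loxl2, which carries scavenger receptor domains and crosslinks type IV collagen of basement membranes (chromosome 14, 69609068 to 69695834, plus strand), was at 23.8, 44.3 and 129 CPM in the libraries labelled shDdr2 1 to 3 and at 39.6, 51.7 and 84.7 CPM in control 1 to 3. The libraries labelled shDdr2 held both the lowest and the highest value of each of these genes. The Loxl2 log2 fold change was 0.16 (SE 0.60, 95% interval -1.25 to 1.57, edgeR unadjusted p = 0.795), with -0.78 when that labelled shDdr2 3 was left out and -0.049 when control 1 was.

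Loxl3, a lysyl oxidase needed in mice for palate and spine formation (chromosome 6, 83034173 to 83052562, plus strand), was at 13.4, 34.5 and 68.6 CPM in the libraries labelled shDdr2 1 to 3, against 25.5, 39.6 and 37.8 CPM in control 1 to 3. The controls lay between the extremes of the tumours labelled shDdr2, with a log2 fold change of 0.18 (SE 0.53, 95% interval -1.06 to 1.43, edgeR unadjusted p = 0.743) that was -0.51 without the library labelled shDdr2 3. An exon of Loxl3 overlaps Htra2 on the other strand, and without a stated strand setting reads there cannot be told apart. Loxl4, another family member with scavenger receptor domains (chromosome 19, 42593982 to 42612813, minus strand), followed another order, at 7.73, 34.6 and 51.2 CPM in the libraries labelled shDdr2 1 to 3 and 45.5, 17.9 and 27.7 CPM in control 1 to 3. It was the only lysyl oxidase gene whose highest control was control 1. Its log2 fold change of 0.04 (SE 0.64, 95% interval -1.46 to 1.54, edgeR unadjusted p = 0.953) was 0.50 when that labelled shDdr2 1 was left out and 0.46 without control 1. It was -0.23 without control 2, -0.025 without control 3, and -0.043 and -0.52 without those labelled shDdr2 2 and 3. Leaving out both number 1 libraries, which was chosen after seeing the data, moved Loxl4 to 0.90, with an edgeR unadjusted p of 0.0217, where 1033 of all genes had an unadjusted p under 0.05 and 0 members were called.

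Plod1 and Plod3 varied little, while Plod2 varied more. Plod1, which hydroxylates lysines within the collagen helix (chromosome 4, 147909753 to 147936767, minus strand), was at 40.7, 63.04 and 71.7 CPM in the libraries labelled shDdr2 1 to 3 and at 37.9, 60.6 and 59.5 CPM in control 1 to 3. After TMM scaling the tumour labelled shDdr2 was above the control in each of the 3 same-numbered pairs, though the groups overlapped. By library totals alone the number 1 pair went the other way, and the share of all genes higher in 3 pairs was not computed. Plod1 had a log2 fold change of 0.15 (SE 0.29, 95% interval -0.53 to 0.84, edgeR unadjusted p = 0.617). It was -0.028 without control 1 and -0.021 when that labelled shDdr2 3 was left out. Plod3, which also has glycosyltransferase activity on collagen (chromosome 5, 136987019 to 136996648, plus strand), was at 87.7, 122 and 116 CPM in the libraries labelled shDdr2 1 to 3, against 86.3, 141 and 123.02 CPM in control 1 to 3. It had the narrowest range of the members, 1.64 times from lowest to highest. Plod3 was the only member with a fold change below 0 (log2 -0.11, SE 0.25, 95% interval -0.69 to 0.48, edgeR unadjusted p = 0.681), which was 0.051 without control 2 and 0.026 when that labelled shDdr2 1 was left out. An exon of Plod3 overlaps Znhit1 on the other strand.

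Plod2, which hydroxylates lysines of the collagen ends and so favours stable pyridinoline crosslinks (chromosome 9, 92542223 to 92608428, plus strand), was at 10.8, 19.3 and 33.9 CPM in the libraries labelled shDdr2 1 to 3 and at 11.97, 12.1 and 17.7 CPM in control 1 to 3. The tumours labelled shDdr2 2 and 3 were above all controls and that labelled shDdr2 1 was below all of them. The log2 fold change was 0.62 (SE 0.43, 95% interval -0.38 to 1.61, edgeR unadjusted p = 0.189). It stayed above 0 without any 1 library, from 0.11 without that labelled shDdr2 3 to 0.93 without that labelled shDdr2 1.

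Serpinh1, the chaperone HSP47 (chromosome 7, 99345376 to 99353239, minus strand), was at 121, 159 and 328 CPM in the libraries labelled shDdr2 1 to 3, against 153, 158 and 185 CPM in control 1 to 3. The controls were close together, with an SD of 0.15 on the log2 scale, against 0.75 in the tumours labelled shDdr2. The log2 fold change of 0.29 (SE 0.37, 95% interval -0.58 to 1.17, edgeR unadjusted p = 0.454) was -0.24 without the library labelled shDdr2 3.

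P4ha3, a catalytic subunit of prolyl 4-hydroxylase (chromosome 7, 100285520 to 100319699, plus strand), was at 34.2, 26.4 and 31.4 CPM in the libraries labelled shDdr2 1 to 3, from 473, 541 and 547 counts. In control 1 to 3 it was at 14.5, 19.96 and 23.01 CPM, from 268, 334 and 366 counts. The groups did not overlap, and the library labelled shDdr2 1, in which 7 other members were lowest, held the highest value. That rank depends on scaling. The TMM factor was 0.867 in the library labelled shDdr2 1 and 1.055 in that labelled shDdr2 3, and by library totals alone the latter was highest. Its log2 fold change of 0.68 (SE 0.25, 95% interval 0.10 to 1.26) had an unadjusted p of 0.0268 in edgeR and an adjusted p of 1.00 over all 14498 genes, so P4ha3 did not pass the test. DESeq2 gave an unadjusted p of 0.0154 and an adjusted p of 1.00. Leaving out 1 library gave 0.53 (without control 1) to 0.83 (without control 3), and leaving out both number 1 libraries gave 0.42. Over all alternatives the unadjusted p of P4ha3 was between 0.0154 (DESeq2) and 0.0799. Markers of skeletal muscle differed in the same direction, with a list mean of 6.51, 8.15 and 5.23 log2 CPM in the libraries labelled shDdr2 1 to 3 and -0.999, 2.83 and 2.96 log2 CPM in control 1 to 3. The controls had the same order in this list mean as in P4ha3, and in the tumours labelled shDdr2 the library with the highest list mean, number 2, had the lowest P4ha3. Their part in the P4ha3 values was not tested.

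In the whole table, edgeR called 0% of genes at an adjusted p under 0.05 (0 higher and 0 lower), and 0 of 10 members. An edgeR unadjusted p under 0.05 was held by 209 genes or 1.44% of all tested, 0.993% of all being also higher in the tumours labelled shDdr2, and by 1 of 10 members, P4ha3. The groups did not overlap in 4.32% of all genes, 2.21% higher and 2.11% lower in the tumours labelled shDdr2, and in 1 of 10 members. DESeq2 called 0.276% of genes (34 higher and 6 lower), and 0 of 10 members, while limma called 0 genes, both by voom and on the authors' log2 values. The median log2 fold change was 0.24 over the members and 0.04 over all genes tested, and 9 of 10 members had values above 0, as had 57.1% of all genes. That median was -0.34, with 2 of 10 members above 0, without the library labelled shDdr2 3, 0.57 without that labelled shDdr2 1, and 0.03 without control 1 or with the replicate number as a block. Members above 0 numbered 5 of 10 with that block, where 51.3% of all genes were above 0. They numbered 6 by limma voom (51.1% of all genes) and 5 by limma on the authors' log2 values (50.1%).

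**Figure D3:**
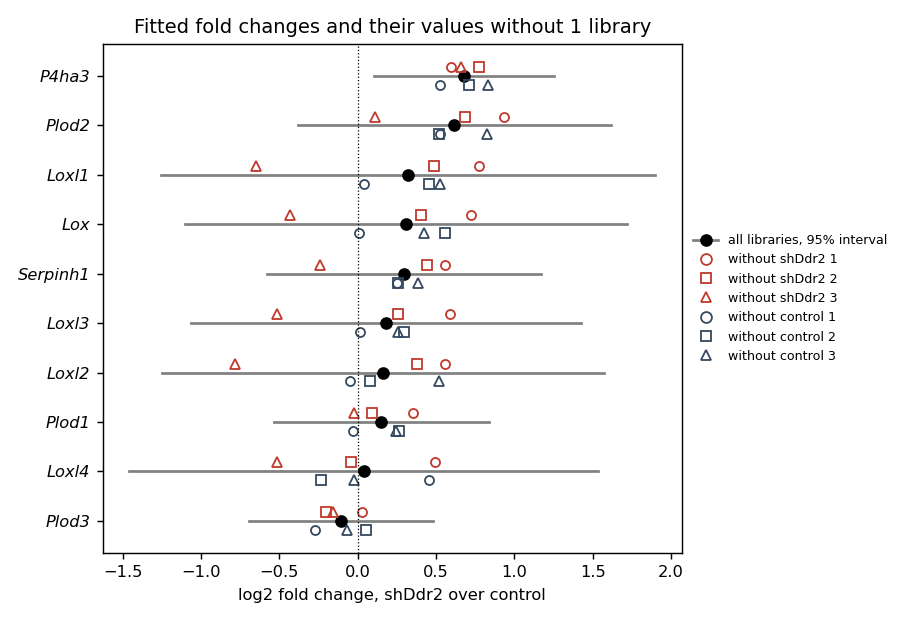
Log2 fold change of each gene, tumours labelled shDdr2 over controls (horizontal axis), with the fitted value and its 95% interval (black and grey) and the values without each library (open symbols). The interval of P4ha3 runs from 0.10 to 1.26 and that of every other gene includes 0, and most open triangles for the library labelled shDdr2 3 lie left of 0.

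The members were set beside type I collagen, the main fibrillar substrate. Col1a1 was at 235, 1132 and 3583 CPM in the libraries labelled shDdr2 1 to 3 and at 721, 1429 and 1721 CPM in control 1 to 3, and Col1a2 was at 272, 960.5 and 2690.2 CPM, against 599.8, 1089.5 and 1414 CPM. The highest library was 15.2 times the lowest for Col1a1 and 9.89 times for Col1a2. The members spanned less, from 5.14 times (Loxl3) to 7.62 times (Loxl1) in the 5 lysyl oxidases, 3.15 times in Plod2, 2.72 times in Serpinh1, 2.36 times in P4ha3 and 1.89 times in Plod1, where the median of all genes tested was 2.04 times. Among all genes tested, 34.6% were lowest in the library labelled shDdr2 1 and 20.3% highest in that labelled shDdr2 3, so those libraries hold many extremes besides those of the members.

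No ratio of a member to type I collagen separated the groups. The log2 ratio of each member's count to the mean count of Col1a1 and Col1a2 does not depend on library scaling. It was highest in the library labelled shDdr2 1 for 9 of 10 members and lowest in that labelled shDdr2 3 for 8 of 10. Type I collagen, the shared denominator, was itself lowest in the former and highest in the latter, and spanned more than any member. These counts therefore largely repeat the collagen values. For Lox the ratio was -2.39, -3.05 and -3.58 in the libraries labelled shDdr2 1 to 3 and -3.42, -3.02 and -3.53 in control 1 to 3. For P4ha3 it was -2.89, -5.31 and -6.64 in the libraries labelled shDdr2 1 to 3, against -5.50, -5.97 and -6.08 in control 1 to 3. The ratios of all 10 members overlapped between the groups, with differences from -0.02 (Loxl4) to 0.91 (P4ha3) and two-sided exact permutation p from 0.4 to 1 (all adjusted p = 1 over 10 ratios, where 0.1 is the smallest p possible). Without the library labelled shDdr2 1 the P4ha3 difference was -0.12.

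**Figure D4:**
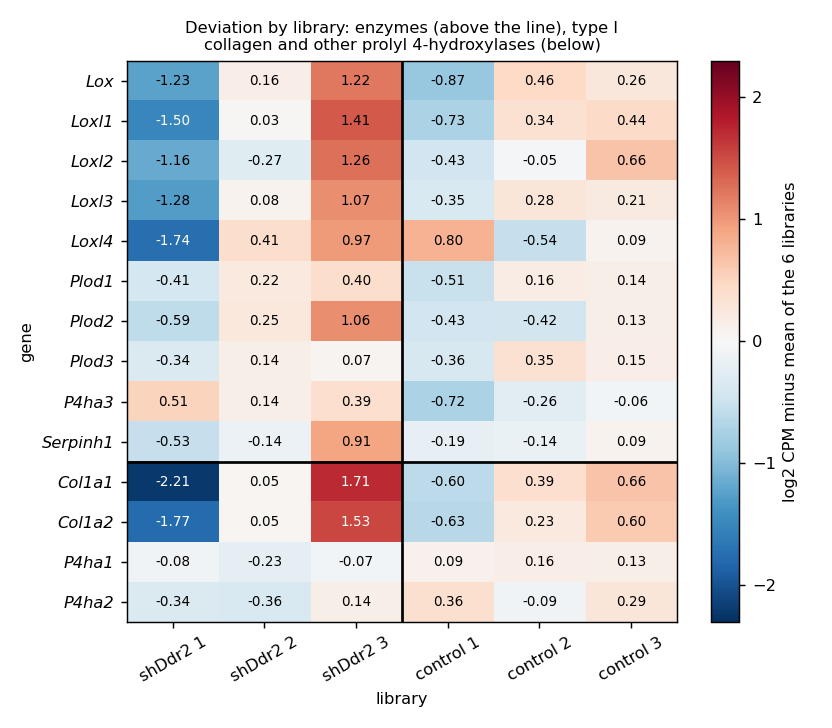
Log2 CPM minus the gene's mean over the 6 libraries (colour and printed values), for the 10 genes above the line and for type I collagen and the other prolyl 4-hydroxylase subunits below it, by library (labelled shDdr2 on the left). Col1a1 runs from -2.21 to 1.71 and Lox from -1.23 to 1.22 in the libraries labelled shDdr2 1 and 3, while P4ha3 is at 0.51 and 0.39 in them.

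Likeness of pattern and spread was described by the root mean square difference between log2 CPM values over the 6 libraries. Each value was centred on the gene's own mean, and 0 means the same pattern and spread. The values were not scaled, so genes of unlike spread lie apart even where they rise and fall together. Genes that vary little, such as Plod1 and Plod3 (SD 0.37 and 0.29), lie near each other. Among the members, Lox and Loxl1 were 0.18 apart and Plod1 and Plod3 0.18 apart, while Loxl4 and P4ha3 were 1.15 apart. Col1a2 was nearer to Loxl1 (0.15) than to Plod3 (0.87) or P4ha3 (1.097). The genes nearest to Loxl1 in the whole table were Col6a2 (0.09), Cd93 (0.10) and Col6a1 (0.10). Those nearest to Lox were Nova2 (0.10), Gucy1a1 (0.12) and Slc2a13 (0.12), and those nearest to Loxl2 were Srpx2 (0.07), Ccn4 (0.10) and Adamts16 (0.10). Loxl4 had no gene as near, with Zfp608 (0.18), Mgat3 (0.20) and B230344G16Rik (0.22) closest. These 6 points share the library composition described above, and the nearest of so many genes is near in part by choice.

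The balance between paralogues was compared as a log2 ratio of counts within each library. P4ha3 over P4ha1 was -1.75, -1.97 and -1.88 in the libraries labelled shDdr2 1 to 3, against -3.16, -2.77 and -2.53 in control 1 to 3. The groups did not overlap, with a difference of 0.95 and a two-sided exact permutation p of 0.1, the smallest this design can give (adjusted p = 0.5 over 5 ratios). P4ha3 was higher and P4ha1 lower in every tumour labelled shDdr2 than in any control. Their ratio therefore had to separate the groups, and this p adds no evidence beyond these 2 genes. Without any 1 library the difference was between 0.78 and 1.09. In P4ha1 itself the level was 115, 104 and 116 CPM in the libraries labelled shDdr2 1 to 3 and 129.98, 136 and 134 CPM in control 1 to 3, without overlap, and the log2 fold change was -0.25 (SE 0.17, edgeR unadjusted p = 0.179). P4ha2, the third catalytic subunit, was at 99.9, 98.6 and 139 CPM in the libraries labelled shDdr2 1 to 3, against 162, 119 and 154 CPM in control 1 to 3, a log2 fold change of -0.37 (SE 0.23, edgeR unadjusted p = 0.153).

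The other 4 ratios overlapped between the groups. Plod2 over Plod1 was -1.56 ± 0.43 in tumours labelled shDdr2 and -1.90 ± 0.36 in controls, a difference of 0.34 (two-sided exact permutation p = 0.5). Plod3 over Plod1 was 0.92 ± 0.21 in tumours labelled shDdr2 and 1.15 ± 0.09 in controls, a difference of -0.24 (exact p = 0.2). Loxl1 over Lox and Loxl2 over Lox differed by -0.14 and -0.21 (exact p = 0.6 for both), and adjusted p was 0.5 to 0.6 for these 4 ratios. Single libraries moved all 4: without 1 library each, the difference ran from 0.098 (without that labelled shDdr2 3) to 0.51 (without that labelled shDdr2 1) for Plod2 over Plod1 and from -0.33 (without that labelled shDdr2 1) to -0.12 (without that labelled shDdr2 3) for Plod3 over Plod1. It ran from -0.27 (without that labelled shDdr2 3) to -0.036 (without that labelled shDdr2 1) for Loxl1 over Lox, and from -0.52 (without control 2) to -0.050 (without control 1) for Loxl2 over Lox. Values are mean ± SD of log2 ratios, n = 3 each.

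**Figure D5:**
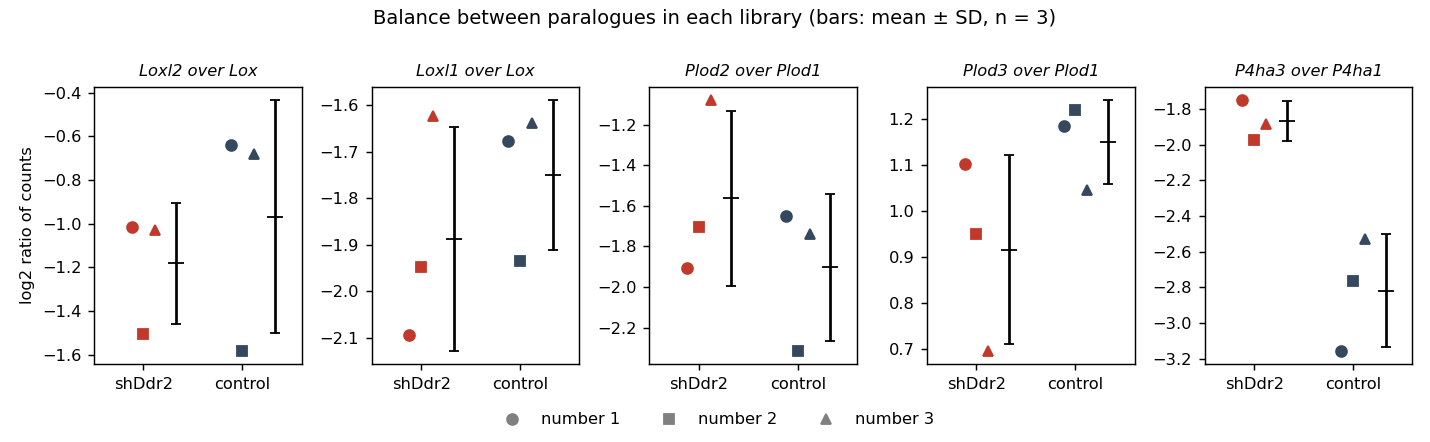
Log2 ratio of counts between paralogues (vertical axes) in the 3 libraries labelled shDdr2 (red) and the 3 controls (dark), with bars at the mean ± SD (n = 3). P4ha3 over P4ha1 lies between -1.97 and -1.75 in tumours labelled shDdr2 and between -3.16 and -2.53 in controls, and the other panels overlap.

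Of 23 other genes of collagen maturation listed, 22 were tested, and 0 passed the edgeR test in either direction. They had a median log2 fold change of 0.18 against 0.04 over all genes, with 17 values above 0 and 5 below, and 0 of 22 had an unadjusted p under 0.05. The groups did not overlap in 1 of 22, P4ha1, and in 4.32% of all genes tested. Next after P4ha2 and P4ha1 in edgeR came P3h4, a partner of the lysyl and prolyl 3-hydroxylases, with a log2 fold change of 0.33 (SE 0.28). It was at 112 ± 38.9 CPM in tumours labelled shDdr2 and 88.7 ± 10.1 CPM in controls (mean ± SD). Of the 22, 10 were lowest in the library labelled shDdr2 1 and 10 highest in that labelled shDdr2 3. When that labelled shDdr2 3 was left out, the median was -0.24.

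Of 10 fibrillar collagen genes tested, 8 were lowest in the library labelled shDdr2 1 and 8 highest in that labelled shDdr2 3. Of them 0 passed the edgeR test, 6 had values above 0 and 4 below, and the median log2 fold change was 0.23. Their list mean was 5.67 ± 1.37 log2 CPM in tumours labelled shDdr2 and 5.91 ± 0.54 log2 CPM in controls. Among them Col3a1, the type III chain of soft tissues, was at 1700 ± 1404 CPM in tumours labelled shDdr2 and 1286 ± 401 CPM in controls. The 4 elastic fibre genes, whose products lysyl oxidases also crosslink or bind, all had values above 0 (median 0.52, 0 called), as had 57.1% of all genes. All 4 were highest in the library labelled shDdr2 3, and 2 were lowest in that labelled shDdr2 1. Fbln5, which tethers Loxl1 to elastin, was at 9.73 ± 3.35 CPM in tumours labelled shDdr2 and 6.82 ± 1.497 CPM in controls, with overlap. The 10 fibroblast markers were lowest in the library labelled shDdr2 1 in 9 cases and highest in that labelled shDdr2 3 in 10, with a list mean of 3.90, 4.72 and 5.93 log2 CPM in the libraries labelled shDdr2 1 to 3 and 4.47, 4.92 and 5.09 log2 CPM in control 1 to 3. The part of fibroblast number in the members' values was not tested.

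Hypoxia is known to induce several of these enzymes, among them Plod2, P4ha1, P4ha2, Lox and Loxl2, so 11 other hypoxia response genes were set beside them. Their list mean was 7.89, 7.26 and 7.61 log2 CPM in the libraries labelled shDdr2 1 to 3 and 8.08, 7.96 and 8.03 log2 CPM in control 1 to 3, without overlap, while their summed levels overlapped, at 4778 to 8275 CPM in the tumours labelled shDdr2 and 6671 to 6879 CPM in controls. Their part in the members' values was not tested. Of the 11 genes, 10 had values below 0 and 1 above (median log2 fold change -0.34), 1 had an unadjusted p under 0.05, and 0 passed the edgeR test. Those below 0 included values close to it, at -0.0096, -0.045 and -0.050. The signs of these 11 genes without single libraries were not examined. Adm, which encodes the peptide adrenomedullin, was at 46.8 ± 19.3 CPM in tumours labelled shDdr2 and 81.8 ± 9.08 CPM in controls (log2 fold change -0.81, SE 0.33, edgeR unadjusted p = 0.0440). P4ha1 and P4ha2 had values below 0, as had 10 of the 11 hypoxia genes, and Plod2, Lox and Loxl2 had values above 0, though Lox and Loxl2 did not keep that sign when that labelled shDdr2 3 was left out, and Loxl2 was also below 0 without control 1 and with the replicate block.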

How the data were processed

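The authors deposited whole-number counts per Entrez gene and log2 values. Per the submitters' processing notes, RSEM 1.2.31, Bowtie2 2.1.0, limma and the build GRCm38.p5 were named without a role, so counts may be rounded estimates. On checking, the deposited log2 values were log2(count / library factor + 1), with 91753 values equal to the count once this was undone and 17 not. The sources used here give no annotation, gene filter or strand setting. The lowest count is 1, so genes at 0 in a library are not analysed here. RefSeq symbols matched 14876 Entrez numbers, and 419 did not match. Coordinates and exon lengths are those of GENCODE M21, and RefSeq upstream sequences were found for 5 of 10 members.

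Counts were filtered with filterByExpr (minimum count 10), scaled by TMM and compared, tumours labelled shDdr2 over controls, by robust quasi-likelihood fits (edgeR 4.0.16, R 4.3.3). Two-sided p-values were adjusted over 14498 genes (Benjamini-Hochberg, threshold 0.05). Within-library ratios used a pseudocount of 2 and exact permutation over 20 assignments of 3 and 3 libraries. The edgeR step was tested on simulated data. Alternatives used other scalings and filters, DESeq2 1.42.0, limma 3.58.1, the replicate number as a block, other pseudocounts and leaving out libraries.

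The members and the other 16 gene lists were chosen with earlier results of these data known. Named genes are the members, Ddr2, Col1a1, Col1a2 and at most 3 of each other list by smallest p. Krt5 and Krt8 were named besides, as were the 3 nearest patterns of the 4 members with the widest spread.

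The titles give the replicate numbers. Same-numbered libraries deviated together from their group means (r over genes of 0.299, 0.267 and 0.253), all over 0.1. The libraries labelled shDdr2 2 and control 3, with different numbers, had an r of 0.254, as high as that of the number 3 pair. A positive r was thus not confined to shared numbers. All other pairs with different numbers had a negative r, from -0.381 to -0.0859. What a shared number stands for is not given, so the main fit and the exact permutation tests did not pair libraries. The replicate number was used as a block only among the alternatives. No 2 libraries of a group were alike within counting noise (chi-square over its degrees of freedom, 24.8 to 229).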

Additional observations from a re-analysis of the deposited data

How the results depend on the processing

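The count of members called was 0 in the main test and under every alternative run. Genes called stood at 0 under every alternative except DESeq2 (34 higher and 6 lower). P4ha3 and Plod2 kept a log2 fold change above 0 under all 16 alternatives, at 0.42 to 0.83 and 0.11 to 0.93.

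With the replicate number as a block, Loxl1 was at -0.038, Loxl2 at -0.11, Loxl3 at -0.083 and Loxl4 at -0.11 (log2 fold change), all above 0 without it, and the block changed no call. On the deposited log2 values limma gave -0.046 for Loxl1, -0.12 for Loxl2, -0.093 for Loxl3 and -0.24 for Loxl4, and on voom weights -0.10 for Loxl2, -0.054 for Loxl3 and -0.19 for Loxl4. The cause was not tested.

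Without 1 library each, log2 fold changes ranged from -0.43 to 0.72 (Lox), -0.65 to 0.77 (Loxl1), -0.78 to 0.56 (Loxl2), -0.51 to 0.59 (Loxl3), -0.52 to 0.50 (Loxl4), -0.028 to 0.36 (Plod1), -0.27 to 0.051 (Plod3) and -0.24 to 0.56 (Serpinh1). The median over the other maturation genes ranged from -0.24 to 0.25.

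The difference in the ratio to type I collagen ranged, without 1 library each, from -0.030 to 0.33 (Loxl1), -0.29 to 0.31 (Loxl2), -0.20 to 0.44 (Loxl3), -0.45 to 0.68 (Loxl4), -0.35 to 1.06 (Plod1), -0.67 to 0.94 (Plod3), -0.12 to 1.76 (P4ha3) and -0.26 to 0.83 (Serpinh1).

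Each change of sign in these ratios came without the library labelled shDdr2 1 or 3 or without a control, and the P4ha3 over P4ha1 ratio changed sign under none of its alternatives. The lowest count of a member was 107, and the part of depth in the lack of calls was not tested. With 3 libraries a group, the 95% interval of a log2 fold change spanned 0 for 9 of 10 members.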
